A study of Mus musculus with 16 samples.

Results

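Genes of the vesicle fusion and exocytosis machinery were followed in the pituitary of *Esr1* mutant and control female mice. The genes were chosen by symbol from the protein-coding genes of the deposited table: synaptotagmins (Syt), syntaxins (Stx), vesicle-associated membrane proteins (Vamp), Snap proteins, Rab3 and Rab27 GTPases, syntaxin binding proteins (Stxbp), complexins (Cplx), Unc13 proteins and Rims proteins. The annotation holds 68 such genes, and 63 of the 17362 genes in the table were members. *Rims1*, *Vamp9*, *Syt8*, *Syt10* and *Cplx4* were not analysed here. Of the 63, 60 reached a mean of 1 across all 16 mice and were tested, and *Cplx3*, *Stx19* and *Unc13c*, with means of 0.492, 0.158 and 0.127, were not. *Stx11*, at a mean of 1.02, lay just inside this limit.

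The study set out to find tissues and genes tied to the high bone mass of the mutant females and to its loss on a high-fat diet. Pituitary RNA of 16 females aged 27 weeks was sequenced, 1 library per mouse, with 4 mice in each of 4 groups. Controls carried the floxed *Esr1* allele (Esr1 fl/fl) without Cre, and mutants (Esr1Nkx2.1-cre) carried it with a Cre driven by *Nkx2-1*. Both genotypes were fed either chow, here called the standard diet (SD), or a high-fat diet (HFD) for 17 weeks. All groups therefore share the floxed allele, on a mixed CD-1 and 129P2 background. The Cre acts where *Nkx2-1* is or was expressed, which includes hypothalamic cells and the posterior lobe, so a difference in the whole gland can arise in cells that never carried the deletion. Groups are named by genotype and diet, mice by the number in their label, and s.d. is the standard deviation. Values are the authors' normalized expression signal per gene. Levels of different genes are compared on the assumption that this signal is scaled by transcript length, as low values of genes with 1 transcript show. The values of a library summed to between 908897 and 1335782.

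Endocrine cells of the pituitary store hormones in dense-core granules and release them when calcium enters. A vesicle SNARE (Vamp) pairs with plasma membrane SNAREs (syntaxin and Snap25 families) to pull the membranes together, with Stxbp proteins as chaperones, Unc13 and Rims proteins as priming factors, complexins as clamps, and synaptotagmins as calcium sensors. Rab3 and Rab27 GTPases bring granules to the release site, and other syntaxins and Vamps serve the Golgi and endosomes from which granules are made.

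The label of the tissue was checked against marker genes. *Prl*, the lactotroph hormone, was the most abundant gene of its list, with values from 262170 to 496850, and *Gh*, the somatotroph hormone, lay between 30462 and 95122. *Esr1* was read in every mouse: 40.5, 46.6, 39.4 and 29.0 in controls on SD, and 10, 22.2, 20.5 and 21.8 in mutants on SD. On HFD it was 23.6, 43.4, 42.7 and 39.6 in controls and 33.4, 27.9, 33.0 and 21.5 in mutants. The groups were apart on SD and overlapped on HFD. *Esr1* was lower in mutants on SD by limma (log2 difference −1.09 ± 0.25, standard error; adjusted p = 0.0409), and on HFD the difference was −0.34 ± 0.25 (adjusted p = 0.696).

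A pair of libraries stood apart from the rest before any comparison. The intermediate lobe genes *Pomc*, *Pax7*, *Pcsk2* and *Oacyl* summed to 1666 in mutant P357 (SD) and 3484 in control P392 (HFD), against 11369 to 42298 in the other mice. *Rax*, a posterior lobe gene, was listed at 0 in both, and *Scn7a* stood at 0.286 in P357 and 0.173 in P392. The summed level of 5 posterior lobe markers, led by *Col25a1*, was 14.6 in P357, against 22.9 to 30.4 in the other mutants on SD. In P392 this sum was 16.1, within the 15.2 to 17.1 of the other controls on HFD. P357 was also lower than each of the other mutants on SD in 31 of the 60 members tested and higher than each in 20. The granule SNARE *Vamp2* was among the lower (125 against 182 to 204). P392 is a control, yet 7 of the 11 members called between genotypes over both diets, below, were nearer in it to the mean of the mutants than to that of the other controls. Its *Esr1*, at 39.6, was above that of all 8 mutants, although another control on HFD, P385, read 23.6 and lay among them. Whether the genotype label of P392 is right was not tested. A lobe score, the mean log2 signal of the intermediate and posterior lobe genes above, was added to the model as an alternative. Among its genes *Col25a1* was itself called higher in mutants by limma over both diets (0.89 ± 0.15, adjusted p = 0.00471). The score is therefore not free of genotype. With the score in the model, the members called between genotypes went from 3 to 0 on SD and from 0 to 1 on HFD. Over both diets they went from 11 to 14, with all 11 kept. Among all 14345 genes the calls went from 264 to 55, from 0 to 100 and from 938 to 1334. Where the call of a member's difference printed with all mice changes without P357 and P392, both values are given. For members in which P392 lies nearer to the mutants, leaving it out widens the difference on HFD by construction, and counts obtained without it are a description of its weight. This does not hold for all: the HFD difference of *Syt5* went from 0.41 to 0.33 without P357 and P392.

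Members were well represented among pituitary transcripts. In controls on SD the median member had a level of 20.8, against 9.37 for the median of all genes listed, and 45 of the 63 members lay above that median. Levels of at least 100 were held by 6 members, 37 lay between 10 and 100, 16 between 1 and 10, and 4 under 1. Among SNAREs of fusion at the plasma membrane, vesicle SNAREs included, *Snap25* led with 236 ± 7.72 (s.d., n = 4). Its vesicle partner *Vamp2* followed with 183 ± 10.4, and these did not overlap between mice. Both exceeded the neuronal syntaxin *Stx1a* (12.5 ± 3.04). *Stx4a* (69.8 ± 4.54), *Stx2* (47.0 ± 2.93) and *Stx3* (31.1 ± 1.15) were the more abundant syntaxins of that membrane.

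In the other roles a single gene often carried much of the summed level. *Cplx2* made up 95.6% of the complexin level, with 52.7 ± 6.68 in controls on SD. *Stxbp2* (138 ± 33.8) led the syntaxin binding proteins. *Syt7* (102 ± 16.8), a slow, high-affinity calcium sensor, led the synaptotagmins that bind calcium, ahead of *Syt1* (37.2 ± 1.30). Of those with weak or no calcium binding, *Syt4* (75.0 ± 16.4) and *Syt13* (42.2 ± 3.85) were highest. *Rab3b* (89.0 ± 12.8), *Rab27a* (77.7 ± 3.70) and *Rab3a* (66.2 ± 9.64) led the granule Rabs, with overlap between neighbours in this order. *Unc13a* (47.7 ± 8.85) and *Unc13b* (20.8 ± 2.29) led the priming factors. The Golgi and endosome SNAREs *Stx16* (161 ± 27.3) and *Stx5a* (147 ± 15.5) were among the highest of all members.

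**Figure D1:**
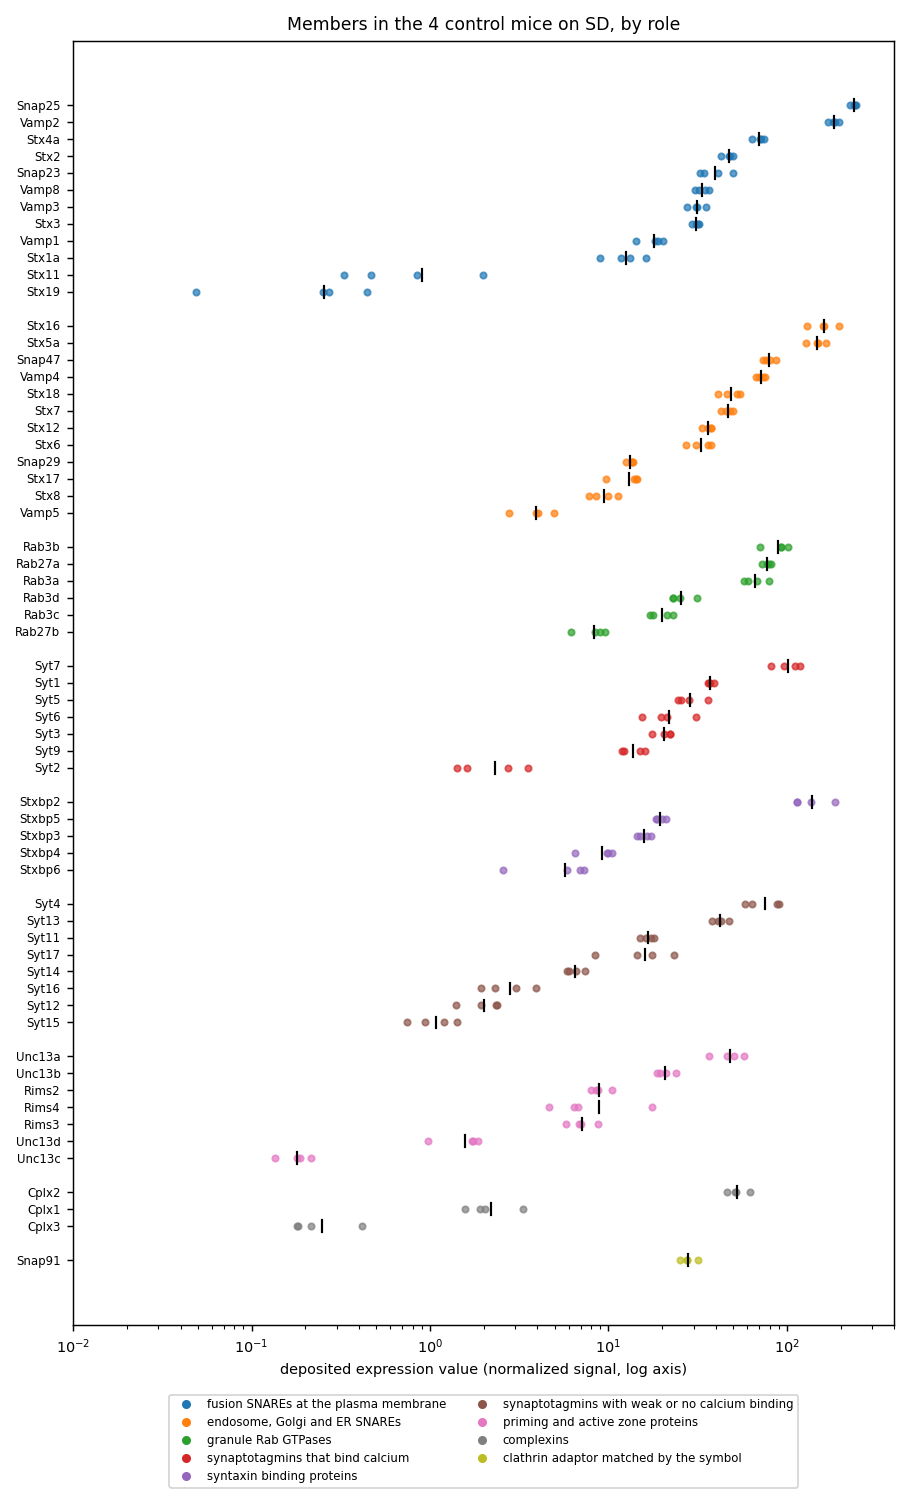
Level of the members reported here (normalized signal, log axis) in the 4 control mice on SD, grouped by role; points are mice and black ticks are means. *Snap25* and *Vamp2* lie highest, and *Stx11*, *Stx19*, *Unc13c* and *Cplx3* have means under 1.

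The genotype was compared first on SD, which asks how the mutant pituitary differs at the time of high bone mass. Of the 60 members, 3 passed an adjusted p of 0.05 by limma, all higher in mutants, which is 5% of members against 1.84% of all 14345 genes tested (1.37% higher and 0.474% lower). They were the granule GTPase *Rab3a*, the vesicle calcium sensor *Syt5* and *Snap91*, which encodes a clathrin adaptor (AP180) of vesicle retrieval and meets the symbol rule without being a SNARE. At an unadjusted p under 0.05 there were 24 members, 40% against 19.9% of all genes. Of these, 11 were higher (18.3% against 10.9%) and 13 lower (21.7% against 9.02%). Groups did not overlap for 13 of the 60, 21.7% against 10.6% of all genes. Mutants were above controls in 6 (10% against 6.09%) and below in 7 (11.7% against 4.5%).

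*Rab3a* read 79.1, 67.7, 60.3 and 57.6 in controls on SD, and 89.2, 101, 110 and 98.1 in mutants on SD. On HFD it read 78.8, 57.5, 65.8 and 97.1 in controls, and 102, 115, 108 and 116 in mutants. All mutants lay above all controls of their own diet, and the 97.1 of control P392 was the one control value within the mutant range. The difference was 0.59 ± 0.14 on the log2 scale on SD (adjusted p = 0.0445) and 0.58 ± 0.14 on HFD (adjusted p = 0.205). Without P357 and P392 the HFD difference was 0.72 ± 0.12 by limma (adjusted p = 0.00246). With all mice, the exact permutation test of 4 against 4 gave 0.0286 on each diet, the smallest value it can give.

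*Syt5* was 35.9, 25.4, 28.2 and 24.5 in controls on SD, against 49.3, 40.4, 48.7 and 38.7 in mutants on SD. On HFD its values were 37.6, 24.4, 30.6 and 24.6 in controls and 34.1, 42.7, 41.0 and 36.5 in mutants. *Syt5* groups were apart on SD and met on HFD, where control P385 was above 2 mutants. Its log2 difference was 0.63 ± 0.15 on SD (adjusted p = 0.0456).

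*Snap91* was 25.2, 27.7, 27.6 and 31.7 in controls on SD and 47.5, 42.6, 39.6 and 34.2 in mutants on SD. On HFD it was 23.7, 23.3, 29.5 and 29.1 in controls and 33.9, 29.0, 39.2 and 32.8 in mutants. Every mutant on SD was above every control on SD, and on HFD 1 mutant, P341, fell among the controls. The log2 difference was 0.53 ± 0.13 on SD (adjusted p = 0.0426) and 0.35 ± 0.13 on HFD (adjusted p = 0.347).

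These SD calls lie close to the threshold. None of the 3 was called with the variance fitted without a trend or with a lobe score added to the model, and leaving out single mice gave 0 to 10 members, 0 in most cases, with 10 without control P356 (826 of the 14345 genes called) and 6 without P392 (777 genes). With animal number range as a term, and with only the mice compared, 4 members were called, 2 higher and 2 lower in mutants in each fit. Of these 4, 1 was among the 3 above: *Syt5* in the former and *Rab3a* in the latter. The 2 fits called 298 and 311 of the 14345 genes. Animal numbers fall in a lower and an upper range, which is uneven between genotypes. On SD only mutant P357 has a lower number, and only control P383 an upper one. On HFD mutants P339 and P341 have lower numbers and all controls upper ones. Genotype and animal number range therefore cannot be fully told apart. Without P357 and P392 together 7 members were called, against 6.70% of all genes: *Rab3a*, *Snap91*, *Syt1*, *Syt3*, *Syt5* and *Syt11* higher and *Syt16* lower.

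On HFD, 0 of the 60 members and 0% of all genes were called by limma between genotypes. At an unadjusted p under 0.05 there were 10 members, 16.7% against 10.2% of all genes. Of these, 8 were higher (13.3% against 6.58%) and 2 lower (3.33% against 3.6%). Groups did not overlap for 7, 11.7% against 5.3%, with mutants above in 5 (8.33% against 2.96%) and below in 2 (3.33% against 2.34%). The smallest unadjusted p values belonged to *Rab3a* above, *Syt1* and *Vamp8*. *Vamp8*, a SNARE of endosomes and of granules in exocrine and blood cells, read 34.3, 38.6, 38.4 and 33.5 in controls and 24.2, 29.5, 27.7 and 32.9 in mutants. All 4 mutants on HFD were below all 4 controls, with a log2 difference of −0.34 ± 0.10 (adjusted p = 0.256), and −0.38 ± 0.10 without P357 and P392 (adjusted p = 0.0429). Leaving out P392 brought 4 members past the threshold, among 653 of the 14345 genes, and leaving out P357 and P392 brought 9, against 7.42% of all genes: *Rab3a*, *Rab3d*, *Syt1*, *Unc13a*, *Rims4* and *Cplx1* higher and *Rab27a*, *Syt9* and *Vamp8* lower.

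Since a genotype difference common to both diets is estimated from 8 mice against 8, the mean of both differences was also tested. By limma, 11 of the 60 members were called, 18.3% against 6.54% of all genes, 8 of them higher in mutants (4.48% of all genes) and 3 lower (2.06%). At an unadjusted p under 0.05 there were 21, 35% against 22.7% of all genes. Of these, 11 were higher (18.3% against 13%) and 10 lower (16.7% against 9.71%). The higher members were *Rab3a*, *Syt1*, *Syt3*, *Syt5*, *Syt11*, *Unc13a*, *Unc13b* and *Snap91*, and the lower were *Syt9*, *Cplx2* and *Stx6*. The median log2 difference over the 60 members was −0.05, against 0.00 for all genes, and 24 of the 60 were positive, so the list as a whole did not lie higher. In this bulk tissue, fewer cells of a type and less RNA per cell cannot be told apart.

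**Figure D2:**
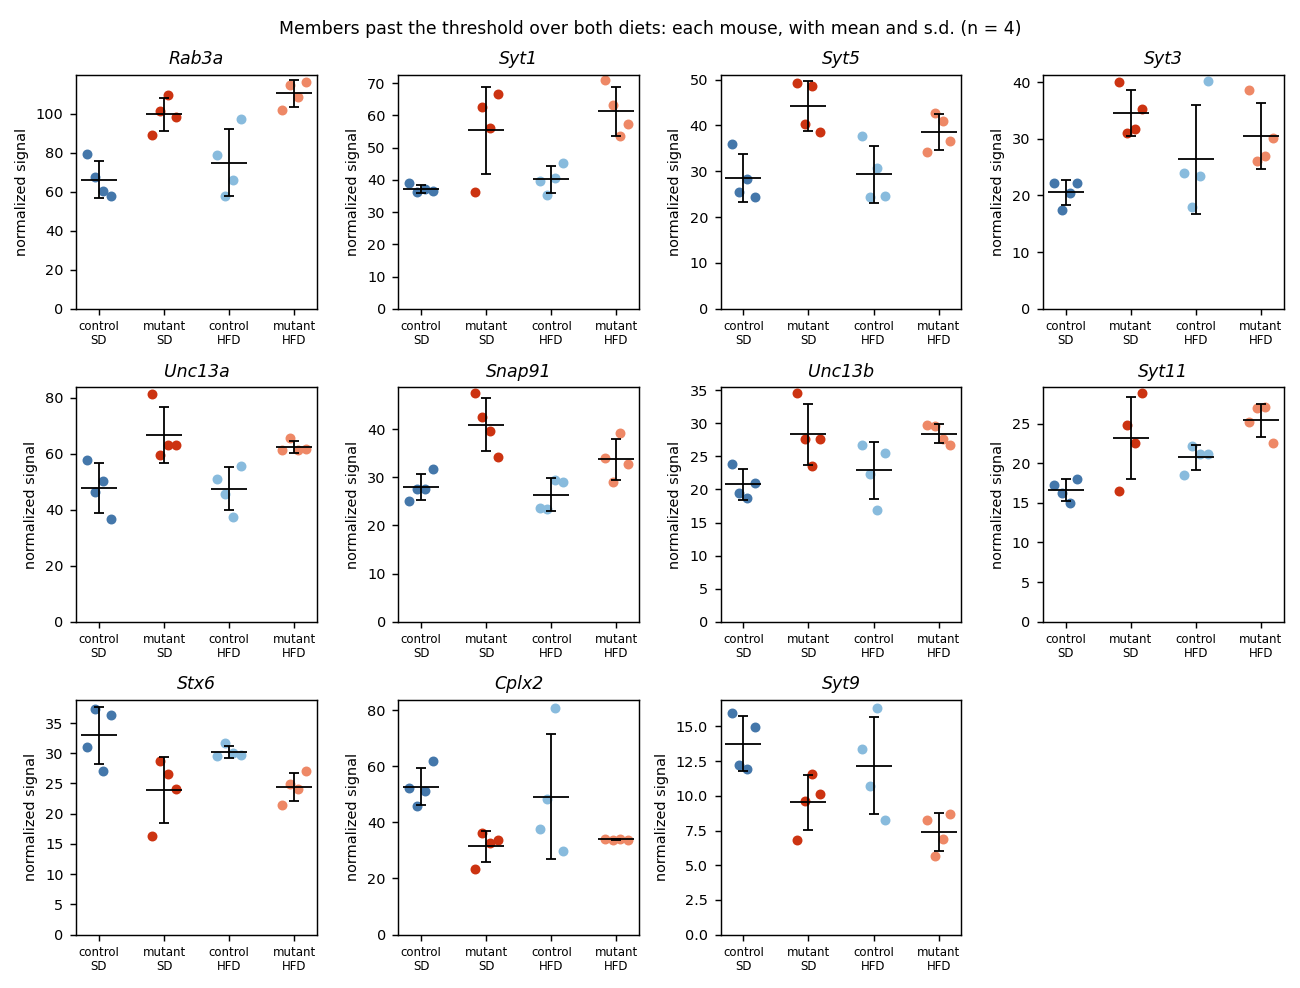
Normalized signal of the 11 members called over both diets in each of the 16 mice, by genotype and diet, with group mean and s.d. (n = 4); each axis starts at 0. The 8 mutants lie above all 8 controls for *Unc13a*, and control P392 lies among the mutants for *Rab3a* and above them all for *Syt3*.

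Of the 7 synaptotagmins that bind calcium, 3 were called higher over both diets and 1 lower, against 4.48% and 2.06% of all genes. *Syt1*, the fast sensor of synaptic and chromaffin vesicles, read 39.1, 36.1, 37.0 and 36.6 in controls on SD, and 36.1, 62.7, 56.0 and 66.7 in mutants on SD. On HFD it read 39.7, 35.2, 40.6 and 45.1 in controls and 70.9, 63.2, 53.6 and 57.2 in mutants. The other 7 mutants were above all 8 controls, and P357 was within the control range. The log2 difference over both diets was 0.57 ± 0.11 (adjusted p = 0.00858).

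*Syt9*, a further calcium sensor of vesicle release, went the other way. It read 16, 12.3, 11.9 and 14.9 in controls on SD, against 6.82, 9.66, 11.6 and 10.1 in mutants on SD. On HFD it read 13.4, 10.7, 16.4 and 8.25 in controls, and 8.29, 5.68, 6.91 and 8.70 in mutants. The genotypes were apart on SD, and on HFD P392 lay among the mutants. *Syt9* was lower by −0.59 ± 0.15 (adjusted p = 0.0268).

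*Syt3* was 22.2, 17.5, 20.5 and 22.2 in controls on SD and 40.0, 31.1, 31.8 and 35.3 in mutants on SD. On HFD it was 23.9, 18, 23.4 and 40.2 in controls and 38.7, 26.1, 27.0 and 30.2 in mutants. Here the highest value of all 16 mice was that of a control, P392. Over both diets *Syt3* differed by 0.49 ± 0.14 (adjusted p = 0.0436). *Syt3* was not called by limma with animal number range as a term or with the variance fitted without a trend (adjusted p up to 0.0523). *Syt11*, which does not bind calcium, differed by 0.37 ± 0.10 (adjusted p = 0.0384), with P357, at 16.5, the one mutant not above all controls, and *Syt5* differed by 0.52 ± 0.11 (adjusted p = 0.0121). *Syt7*, the most abundant calcium sensor, was not called (−0.30 ± 0.13, adjusted p = 0.180). *Syt16*, at a mean of only 1.72 across all 16 mice, also missed the threshold (−0.99 ± 0.29, adjusted p = 0.0570). Without P357 and P392 *Syt16* was called (−1.24 ± 0.22, adjusted p = 0.00157).

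The balance of related genes was then read within each library, for pairs chosen after their values were seen and without a test. The ratio of *Syt1* to *Syt9* ran from 2.45 to 5.46 in the 8 controls (median 2.96), and from 4.85 to 11.1 in the 8 mutants (median 6.57). The ratio of *Rab3a* to *Rab27a* ran from 0.694 to 1.87 in controls (median 0.850) and from 1.43 to 2 in mutants (median 1.71). In both ratios P392 was the one control within the mutant range. The ratio of *Cplx1* to *Cplx2* ran from 0.0269 to 0.147 in controls (median 0.0404) and from 0.0478 to 0.207 in mutants (median 0.111). Its overlap rests on P392 (0.147) and P357 (0.0478), as the other controls reached 0.0541 and the other mutants began at 0.0550.

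Among the priming factors, *Unc13a* (Munc13-1) read 57.8, 46.2, 50.2 and 36.5 in controls on SD and 81.4, 59.5, 63.0 and 63.0 in mutants on SD. On HFD it read 51.0, 45.7, 37.5 and 55.4 in controls and 61.1, 65.7, 61.4 and 61.6 in mutants. All 8 mutants were above all 8 controls, the one called member of which this held. The log2 difference was 0.45 ± 0.10 (adjusted p = 0.0181). *Unc13b* (Munc13-2) ranged from 17.0 to 26.7 in controls and from 23.5 to 34.6 in mutants, with a difference of 0.38 ± 0.10 (adjusted p = 0.0360). *Rims4*, a short Rims protein, had a larger difference of 0.90 ± 0.27 that missed the threshold (adjusted p = 0.0593): controls P356 and P392 read 17.6 and 17.2, against 4.64 to 8.50 in the other 6 controls. Without P357 and P392 *Rims4* was called (1.19 ± 0.23, adjusted p = 0.00312).

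*Cplx2*, the main complexin, was 52.1, 45.9, 51.0 and 61.9 in controls on SD, against 23.5, 36.2, 32.5 and 33.8 in mutants on SD. On HFD it was 37.7, 48.4, 80.7 and 29.8 in controls, and 33.9, 33.7, 34.1 and 33.8 in mutants. On SD the groups did not overlap, and on HFD the controls spread on both sides of the mutants, whose values were close together. *Cplx2* differed by −0.59 ± 0.16 over both diets (adjusted p = 0.0380). *Cplx1* stayed under 8 in all mice and was not called with all mice (0.50 ± 0.24, adjusted p = 0.217), but was without P357 and P392 (0.76 ± 0.19, adjusted p = 0.0139).

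*Snap25* and *Vamp2* were not called in any of the 6 comparisons, with or without P357 and P392. Over both diets *Snap25* differed by 0.01 ± 0.06 (adjusted p = 0.947) and *Vamp2* by −0.00 ± 0.08 (adjusted p = 0.995). Of the 12 tested SNAREs of fusion at the plasma membrane, vesicle SNAREs included, 2 had a positive difference, with a median of −0.14. Over both diets 0 of these 12 were called, against 6.54% of all genes. A count of 0 in so short a list is near that share. Without P357 and P392, 4 of these 12 were called lower, against 7.1% of all genes called lower: *Vamp1* (−0.37 ± 0.09, adjusted p = 0.0155), *Stx1a* (−0.51 ± 0.14, adjusted p = 0.0202), *Stx4a* (−0.25 ± 0.08, adjusted p = 0.0399) and *Stx2* (−0.22 ± 0.07, adjusted p = 0.0486). With all mice *Vamp1* differed by −0.28 ± 0.10 (adjusted p = 0.104) and *Stx1a* by −0.49 ± 0.15 (adjusted p = 0.0609). *Stx4a* differed by −0.15 ± 0.10 (adjusted p = 0.412) and *Stx2* by −0.14 ± 0.09 (adjusted p = 0.394) with all mice. Of the 12 SNAREs of endosome, Golgi and ER, 1 was called. This was *Stx6*, a trans-Golgi syntaxin found on immature granules, which ranged from 27.1 to 37.3 in controls and from 16.3 to 28.7 in mutants and differed by −0.39 ± 0.11 (adjusted p = 0.0402).

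By GENCODE M21 (GRCm38) *Rab3a* is ENSMUSG00000031840 (chr8:70754679-70758677), *Syt1* ENSMUSG00000035864 (chr10:108497650-109010982), *Unc13a* ENSMUSG00000034799 (chr8:71624417-71671757), *Syt9* ENSMUSG00000062542 (chr7:107370728-107548656), *Snap91* ENSMUSG00000033419 (chr9:86765923-86880654), *Syt5* ENSMUSG00000004961 (chr7:4539765-4547541) and *Cplx2* ENSMUSG00000025867 (chr13:54371349-54383917). Support differed among the 11. *Rab3a*, *Syt1*, *Syt5*, *Snap91* and *Unc13a* were called over both diets in each of the 16 fits that left out 1 mouse. *Syt9* was called in 11 of those fits, *Stx6* in 7, *Unc13b* in 6, *Cplx2* in 5, *Syt11* in 4 and *Syt3* in 2. Without P357 and P392 22 of the 60 members were called, against 18.6% of all genes. All 11 were among them, but they had been picked from a fit on the same mice. P392 was nearer to the mutants in 7 of the 11, so leaving it out widens their difference by construction. This count is a description and adds no support.

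**Figure D3:**
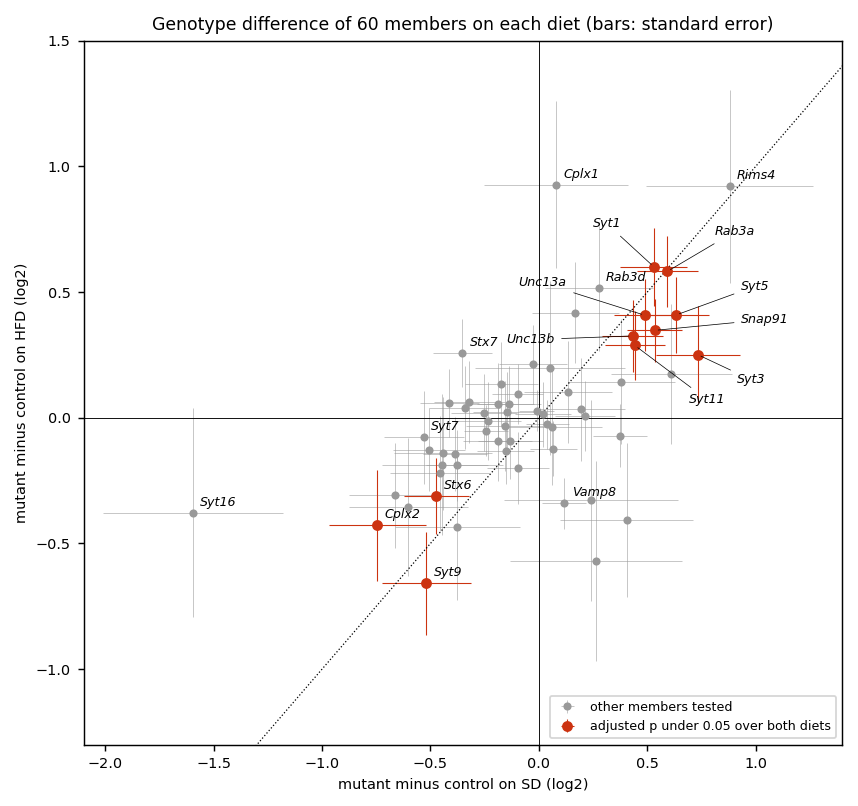
Mutant minus control difference on SD (x axis) and on HFD (y axis), log2 scale with standard errors, for the 60 members tested; the dotted line marks equal differences. The called members have the same sign on both diets, with *Rab3a* (0.59 and 0.58) close to that line and *Syt3* (0.73 and 0.25) and *Cplx2* (−0.74 and −0.43) further from it. Without P357 and P392 these were 0.66 and 0.47 for *Syt3* and −0.61 and −0.63 for *Cplx2*.

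The comparisons of genotype on SD and on HFD have no mouse in common, so their values can be set side by side. Of the 60 members, 40 had the same sign on both diets (66.7%, against 63.7% of all genes tested). Pearson's r across members was 0.61, and 0.61 across all genes, as a description, since genes are not independent replicates.

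The diet was compared within each genotype, the contrast in which the mutants lose their bone mass. No member was called by limma on HFD against SD in mutants (0% of all genes). At an unadjusted p under 0.05 there were 6 members, 10% against 5% of all genes. Of these, 4 were higher (6.67% against 2.55%) and 2 lower (3.33% against 2.45%). Groups did not overlap for 3, 5% against 3.31%, 2 higher on HFD (3.33% against 1.88%) and 1 lower (1.67% against 1.44%). In controls 0 members and 0% of all genes were called, with 4 members at an unadjusted p under 0.05, 6.67% against 4.13%. Of these, 3 were higher (5% against 1.92%) and 1 lower (1.67% against 2.2%). Groups did not overlap for 2, all higher on HFD, 3.33% against 2.61% (of all genes, higher 1.25%, lower 1.36%). The interaction gave 0 members and 0% of all genes, with 4 members at an unadjusted p under 0.05, 6.67% against 4.2%. Of these, 2 were positive (3.33% against 2.13%) and 2 negative (3.33% against 2.07%). Counts of 0 do not show that the values did not differ.

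The members with the smallest p in these comparisons are given as values. In mutants *Cplx1* read 1.12, 1.99, 3.60 and 3.10 on SD and 5.26, 3.72, 7.06 and 4.03 on HFD. These groups did not overlap, and the log2 difference was 0.95 ± 0.33 (adjusted p = 0.813). *Vamp8* in mutants went from 38.0, 36.5, 33.6 and 36.9 on SD to the HFD values above, a difference of −0.34 ± 0.10 (adjusted p = 0.813). *Syt13* differed by 0.38 ± 0.14 in mutants (adjusted p = 0.813), and by 0.23 with the lobe score as a term. In controls *Stxbp3* differed by 0.28 ± 0.12, *Syt11* by 0.31 ± 0.14 and *Stx7*, a late endosome syntaxin, by −0.29 ± 0.14 (adjusted p = 0.998 each). All 4 controls on HFD but only 1 of those on SD, P383, have upper animal numbers, and with animal number range as a term the difference of *Syt11* was 0.16. In the interaction *Vamp8* (−0.46 ± 0.14), *Stx7* (0.61 ± 0.19) and *Stxbp3* (−0.45 ± 0.18) had the smallest p (adjusted p = 0.924 each).

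**Figure D4:**
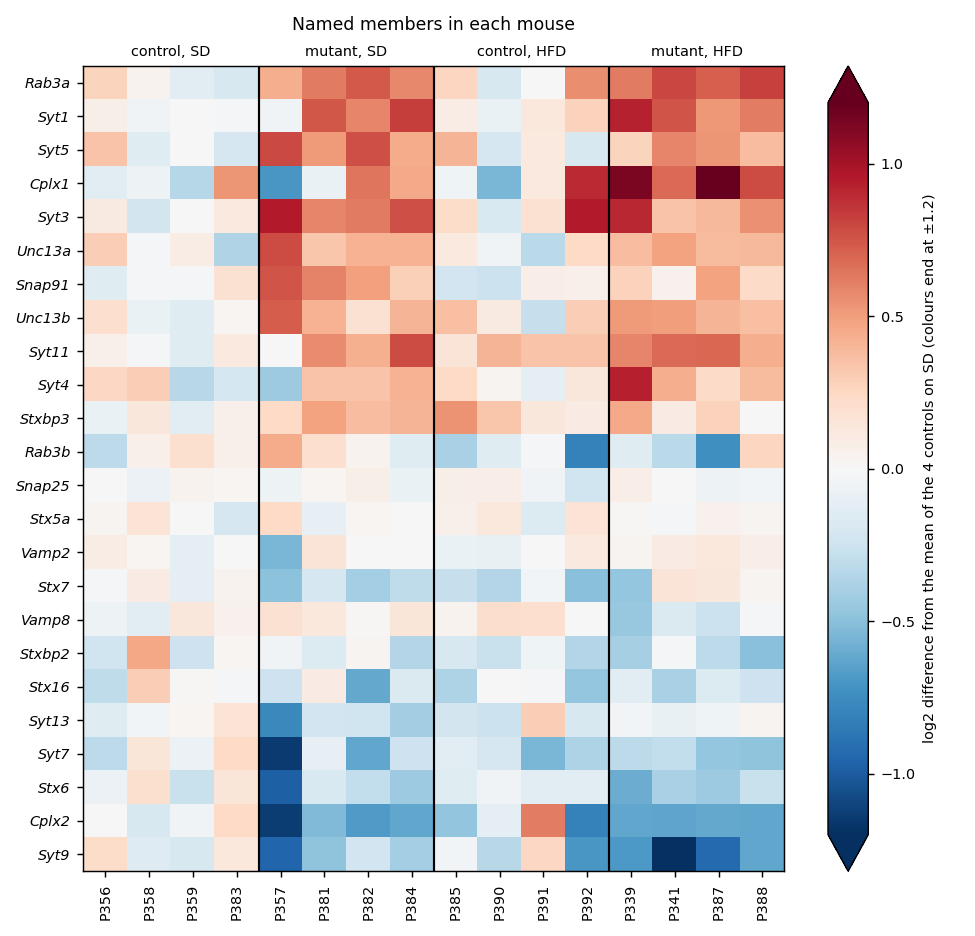
Log2 difference of 24 members from the mean of the 4 controls on SD, in each mouse, ordered by the genotype difference over both diets. Rows at the top are higher and rows at the bottom lower in mutants, and the columns of P357 and P392 differ from those of their groups.

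Genes of the same pathway outside the symbol rule were read from a list of 76, of which 72 were tested. On SD and over both diets the same 4 were called, 2 higher and 2 lower, against 1.84% and 6.54% of all genes. Of the 16 fits that left out 1 mouse, *Rph3a* was called on SD in 10, *Sytl1* in 7, *Syn2* in 6 and *Pclo* in 3. Over both diets *Pclo* was called in 8 of those fits and the others in all 16. *Rph3a*, the Rab3 effector rabphilin, was 3.40, 2.52, 3.12 and 3.02 in controls on SD and 6.52, 7.6, 9.19 and 8.86 in mutants on SD. On HFD *Rph3a* was 3.35, 1.67, 1.89 and 4.43 in controls and 3.73, 3.86, 6.08 and 8.08 in mutants. Mutants on SD lay apart from controls, and mutants on HFD met control P392, with a difference over both diets of 1.06 ± 0.19 (adjusted p = 0.00564).

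*Syn2*, a synapsin that tethers vesicles, differed by 0.72 ± 0.12 (adjusted p = 0.00471), and *Sytl1*, a Rab27 effector, by −0.48 ± 0.10 (adjusted p = 0.0120). *Pclo*, the active zone scaffold piccolo, differed by −0.34 ± 0.09 (adjusted p = 0.0361). *Rab27a* itself was not called with all mice (−0.27 ± 0.10, adjusted p = 0.143), but was without P357 and P392 (−0.27 ± 0.06, adjusted p = 0.00540).

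Markers of other cell types differed between the same groups. Of the 5 endothelial markers 3 (*Pecam1*, *Cdh5* and *Plvap*) were called higher in mutants over both diets, and their summed level, led by *Plvap*, was 101 to 123 in controls on SD, 154 to 206 in mutants on SD, 94.3 to 183 in controls on HFD and 149 to 164 in mutants on HFD. The one control above 123 was P392. Of the 5 neuron markers 2 (*Slc17a6* and *Gad2*) were called higher in mutants, while *Gad1* and *Slc32a1* had means under 1, and the summed level, led by *Slc17a6*, was 15.7 to 24.9, 23.6 to 38.8, 17.4 to 39.7 and 36.1 to 50.3 in the same order of groups.

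*C1qa* among 5 immune markers, *Col25a1* among 5 posterior lobe markers, *Dio2* among 3 thyrotroph markers, *Pappa2* among 3 somatotroph markers and *Aldh1a2* among 3 stem and folliculostellate markers (of which *S100b* had a mean under 1) were also called higher over both diets. In the same lists *Rax* (−0.37), *Nkx2-1* (−0.10), *Ghrhr* (−0.40) and *Gh* (−0.05) had negative differences and were not called. The other markers tested in these lists had positive differences. Of the 3 lactotroph, 4 gonadotroph, 3 corticotroph, 4 melanotroph and 4 fibroblast markers, 0 were called over both diets. The part of these cell types in the members' differences was not tested.

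**Figure D5:**
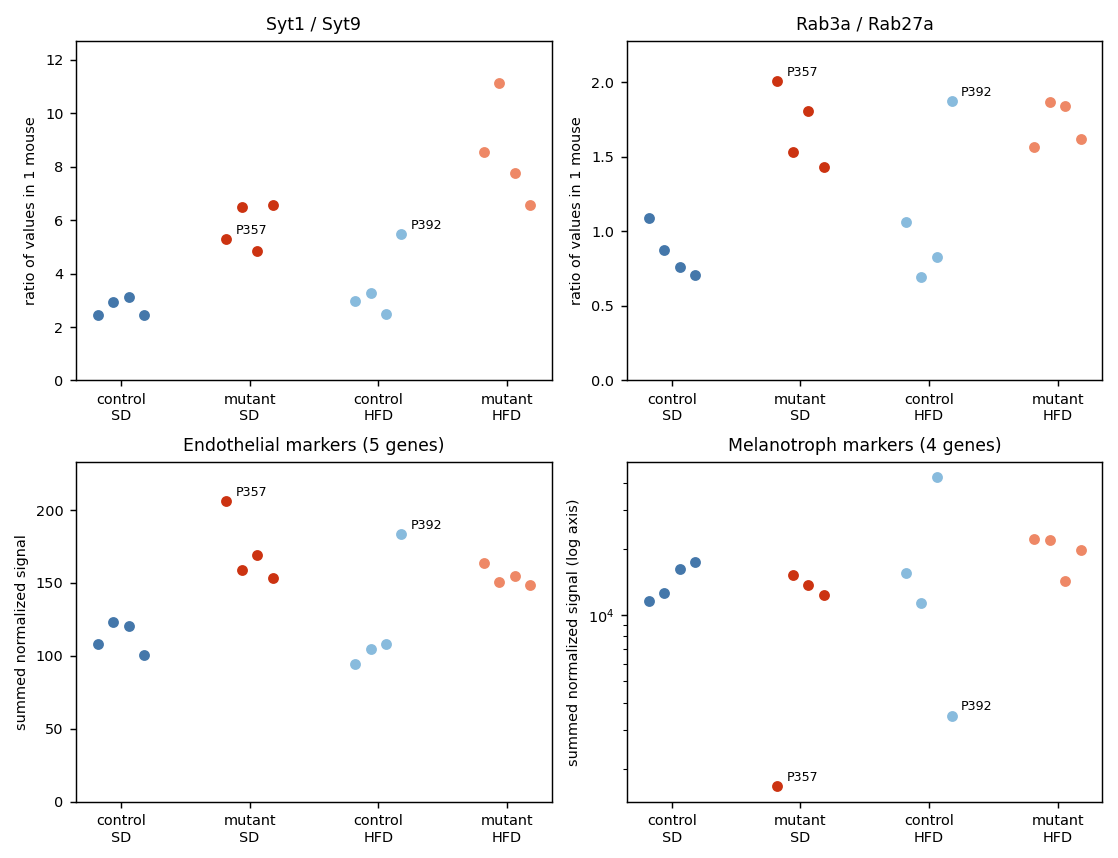
Ratios of *Syt1* to *Syt9* and of *Rab3a* to *Rab27a* (top) and summed signal of 5 endothelial and 4 melanotroph markers (bottom, the last on a log axis) in each mouse; P357 and P392 are named. Both ratios and the endothelial sum are higher in mutants and in control P392, and the melanotroph sum is lowest in P357 and P392.

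Promoters are shown for members that were higher (*Rab3a*, *Syt1*, *Unc13a*) or lower (*Syt9*) together, since a reader may wish to compare their sequence. RefSeq sequences (GRCm38.p6), from 250 bases before to 50 after the start, were matched for 48 of the 63 members and 10 of the 11 called. Motifs were searched on both strands: the full oestrogen response element (GGTCA, any 3 bases, TGACC), its single arm AGGTCA, the cAMP response element TGACGTCA and the GC box GGGCGG. Capitals mark them below. The promoters are those of *Rab3a* at chr8:70754453-70754752 (plus strand), *Syt1* at chr10:109010926-109011225 and its second listed start at chr10:109009062-109009361 (minus strand), *Unc13a* at chr8:71671708-71672007 (minus strand) and *Syt9* at chr7:107370540-107370839 (plus strand). A second listed start of *Rab3a*, at chr8:70754852-70755151, holds none of the motifs and is not printed.
Rab3a: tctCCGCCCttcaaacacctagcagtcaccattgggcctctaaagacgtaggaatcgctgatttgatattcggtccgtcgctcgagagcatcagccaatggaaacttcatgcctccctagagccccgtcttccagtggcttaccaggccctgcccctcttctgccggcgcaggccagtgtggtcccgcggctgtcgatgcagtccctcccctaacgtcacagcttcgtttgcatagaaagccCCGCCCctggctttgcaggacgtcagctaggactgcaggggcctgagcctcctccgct
Syt1: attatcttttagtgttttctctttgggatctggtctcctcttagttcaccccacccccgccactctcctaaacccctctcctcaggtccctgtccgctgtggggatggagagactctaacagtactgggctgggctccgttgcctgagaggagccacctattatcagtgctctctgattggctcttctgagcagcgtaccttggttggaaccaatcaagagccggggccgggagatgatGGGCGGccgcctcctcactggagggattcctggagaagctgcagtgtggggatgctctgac
Syt1, second start: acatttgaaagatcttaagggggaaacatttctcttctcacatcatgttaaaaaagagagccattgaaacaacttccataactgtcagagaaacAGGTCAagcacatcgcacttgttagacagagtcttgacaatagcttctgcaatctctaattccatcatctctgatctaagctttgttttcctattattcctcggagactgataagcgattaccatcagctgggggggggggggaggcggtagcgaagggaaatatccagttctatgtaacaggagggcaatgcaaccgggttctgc
Unc13a: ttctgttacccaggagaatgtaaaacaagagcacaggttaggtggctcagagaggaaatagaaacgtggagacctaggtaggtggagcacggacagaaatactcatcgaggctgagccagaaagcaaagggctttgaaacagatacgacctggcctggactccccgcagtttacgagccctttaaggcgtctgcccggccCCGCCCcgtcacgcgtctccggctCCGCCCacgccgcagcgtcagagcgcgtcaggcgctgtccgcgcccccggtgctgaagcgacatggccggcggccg
Syt9: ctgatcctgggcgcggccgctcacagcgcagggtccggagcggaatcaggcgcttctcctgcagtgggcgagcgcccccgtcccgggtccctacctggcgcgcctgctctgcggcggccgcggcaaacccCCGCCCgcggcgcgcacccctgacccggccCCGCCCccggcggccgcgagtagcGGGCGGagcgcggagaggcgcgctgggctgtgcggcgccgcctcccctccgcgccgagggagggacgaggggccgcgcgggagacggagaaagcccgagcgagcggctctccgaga

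The full element was in 0 of the 48 matched members and in 0.07% of 32851 promoters listed. Its single arm was in 8 of 48 members, and in 1 of the 10 called (*Syt1*, at its second start), against 16.3% of promoters. The GC box was in 38 of 48 members and in 8 of the 10 called, against 35.7% of promoters, where a gene with several starts had several chances. The cAMP element was in *Stxbp3* alone among members, against 1.79%. A match is a description of the letters in this window.

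Reads of some members cannot be told from those of other genes, since the sources used here do not state the use of strand. Exons of 15 of the 63 members overlap another gene, 8 of them over more than 5% of their length, among them *Syt4*, *Syt7*, *Stx18* and *Rab3b*. Of the called members, *Unc13a* shares 495 bp with its neighbour *Colgalt1* and *Rab3a* 29 bp with *Mpv17l2*, each on the opposite strand. Stretches of at least 90% identity with another gene were found in 30 members, and in 10 over at least 300 bp. *Stxbp3* shares 757 bp at 98.9% identity with the pseudogene *Stxbp3-ps*, so its values are uncertain. For members with 1 transcript the signal could be turned into approximate reads: *Syt4* rested on 3176 to 8301 per library, *Cplx2* on 1775 to 6552 and *Rims4* on 409 to 1927.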

How the data were processed

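Pituitary RNA of 16 mice was sequenced by the authors from NEBNext Ultra II libraries on a NovaSeq, quantified per gene by Kallisto (mm10 transcripts, per the submitters' notes) and tested with Sleuth. Versions, the filter on genes and the use of strand are not given in the sources used here. What the authors deposited is a signal for each gene, already normalized, and not counts. Groups come from the labels, and their animal numbers pair no mice. The signal worth 1 read, found from 1457 genes with 1 transcript, was 0.0437 to 0.0686 per kilobase, with 81.3% to 93.7% of low values within 0.15 of a whole number of reads. The total depth is unknown.

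Symbols came from the gene table supplied and positions from GENCODE M21 (GRCm38). Genes with a mean of at least 1 (14345) were taken to log2 after adding 0.5 and fitted by limma 3.58.1 (R 4.3.3) with 1 mean per group. The variance was moderated by eBayes with a trend, and p was adjusted over all genes by Benjamini-Hochberg, with a threshold of 0.05. Differences are on this log2 scale, which understates those of low genes. The script was tested on simulated data. Single genes were compared by two-sided exact permutation tests, whose smallest p with 4 against 4 mice is 0.0286. Replicates are separate mice. Python 3.11.15, numpy 2.4.6, pandas 2.3.3, scipy 1.17.1, matplotlib 3.10.9 and BLAST 2.17.0 (90% identity over at least 100 bp) served the rest.

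Members named are those past the threshold in any comparison, the 3 with the smallest p in each, and the 2 highest of each role, 24 in all. Some members are counted in the lists but not reported here by name. Pathway genes are named when called, and *Esr1* and markers are named as context. *Rims4*, *Syt16*, *Rab27a*, *Vamp1*, the further plasma membrane syntaxins and the ratios were chosen after their values were seen. Other members are named only for the limit on the mean, calls without P357 and P392, motifs or shared sequence. The members and lists were chosen with earlier results of these data known. Alternatives were other pseudocounts, filters, scalings and variance models, only the mice compared, animal number range or lobe score as a term, and leaving out single mice, P357 with P392, or, added after seeing the data, these with P356.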

Additional observations from a re-analysis of the deposited data

Results flagged for a closer look

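Each of the 24 named members was examined in each of the 4 groups for a mouse far from the other 3, which is 96 groups, and 4 were found, where chance at 1 in 20 gives about 4.8. Among mutants on SD, P357 was the distant mouse in 2 of the 4. It read 54.2 for *Syt4*, with the others at 93.6 to 98.8, and 81.4 for *Unc13a*, with the others at 59.5 to 63.0. Among controls on HFD, P391 read 51.7 for *Syt13*, with the others at 35.1 to 36.7. Among mutants on HFD, P341 read 65.7 for *Unc13a*, with the others at 61.1 to 61.6.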

How the results depend on the processing

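The diet comparisons and the interaction gave 0 members by limma under every alternative run. For genotype on SD, 3 members became 1 with a filter at a mean of 5 and 1 with quantile normalization. They became 0 with eBayes without trend, 0 with the lobe score as a term, and 7 without P357 and P392. All genes called, 264 in the main fit, were 151 (with fewer genes tested), 274, 249, 55 and 961 in the same order. The count became 4 with animal number range as a term (298 genes) and 4 with only the mice compared (311 genes). Each of these fits kept only 1 of the 3 and called 2 members higher and 2 lower. For genotype on HFD, 0 became 1 with the lobe score (100 of the 14345 genes called) and 9 without P357 and P392 (1064 genes). Over both diets, 11 became 14 with the lobe score (1334 genes), which kept all 11, and 22 without P357 and P392 (2668 genes). The count became 10 with animal number range as a term (878 genes) and 10 with eBayes without trend (895 genes), each without *Syt3*. It became 12 with a pseudocount of 1 and 13 with quantile normalization (950 and 1082 genes). Leaving out 1 mouse gave 0 to 10 members on SD (10 without P356, 6 without P392) and 0 to 4 on HFD (4 without P392). Over both diets it gave 5 to 18 (18 without P392, 17 without P356, 5 without P341, P383 or P387). The number of all genes called also changed. On SD it was 264 in the main fit, 826 without P356 and 777 without P392, and on HFD it was 653 without P392. Over both diets it was 938 in the main fit, 1931 without P392 and 1412 without P356. Without P341, P383 and P387 it was 488, 506 and 566.

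A fit without P357, P392 and P356 was added after seeing the data and called 15 members on SD, 9 on HFD and 26 over both diets. Of all 14345 genes it called 1891, 1332 and 3390 in the same order. P356 was picked because leaving it out alone had raised the counts, and P356 and P392 are controls, so these higher counts follow from the choice and support no result.

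None of the results followed here, which are named genes in the comparisons where they were called or had the smallest p, reversed its direction. Members with differences near 0 did change sign, such as *Vamp2* over both diets, from −0.00 to 0.10 without P357 and P392. Over the fits that left out 1 mouse, named results kept their side of the threshold in 400 cases, lost a call in 142 and gained one in 2, and under the other alternatives in 386, 29 and 6. The cause of the lost calls was not tested. Scaling alternatives moved the median of all genes by under 0.1 on the log2 scale. No paired analysis was possible because the labels give no replicate numbers shared between groups. Members with few reads, such as *Stx19* (median 6.37), carry large counting error.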
